A study of Bos taurus with 8 samples.

Results

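The bovine genome assembly UMD v3.1 holds, beside the numbered chromosomes, short stretches of sequence that could not be placed on any chromosome. These unplaced scaffolds were examined here in methylation data from dermal fibroblasts. The members were all windows of 3Kb that started on an unplaced scaffold and lay wholly within that scaffold. There were 1341 such windows, on 410 scaffolds, among 902984 windows in all (0.149%), and they covered 4023000 bases. A further 1825 windows started on an unplaced scaffold but ran across its end into the next one, 710 of them with an end coordinate larger than the start, and these were not members. The rule rested on position alone and used no measured value, but it was set with earlier results of these data known.

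The libraries came from un-treated dermal fibroblast cultures grown from the skin of female cattle, 4 Holstein (a dairy breed) and 4 Angus (a beef breed), with 1 library per animal at passage 5. No allele or agent distinguished the groups, which differed in breed only as far as the labels say. The cultures are called here Holstein 1 to 4 and Angus 1 to 4. Because each animal gave 1 culture and 1 library, p-values measure the spread between cultures and cannot tell the animal from its culture or its library. Cell type markers could not be checked, since no expression was analysed here.

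MIRA-Seq enriches sonicated DNA with a protein complex that binds methylated CpG sites, and sequences what is bound. A region yields more reads when it holds more methylated CpG, but also when the region is present in more copies than the assembly shows. Scaffolds that resist placement in a mammalian assembly often carry repeated sequence, such as satellite DNA or duplicated segments, which is why they could not be joined uniquely to a chromosome. Satellite DNA is usually heavily methylated in somatic cells. No input library was used here, so methylation level, CpG density and copy number cannot be told apart in any of the read counts that follow.

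Read counts were expressed as CPM, that is, scaled to 1000000 reads summed over all windows of a library. These sums lay between 18691111 and 35525554 reads, so that a count of 3 reads, used here as the floor of detection, equalled 0.0844 to 0.161 CPM. Intervals and floors of this kind cover counting error only, since copies made by PCR are not independent molecules. Angus 3 and Holstein 1 stood apart from the other libraries. To collect 50% of the autosomal reads took 0.0976% of autosomal windows in Angus 3 and 0.158% in Holstein 1, against 0.764 to 3.33% in the other 6 libraries. Their normalization factors were also the lowest, at 0.677 and 0.817, where the others lay between 0.952 and 1.22. The part of this difference in the results below was not tested, and values without both libraries are given where they change a result.

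Windows inside unplaced scaffolds drew far more reads than autosomal windows. Over the 8 libraries the median window held 1.11 CPM, against 0.292 CPM for the median of 837275 autosomal windows, and the mean window held 10.49 against 0.979 CPM. Within each library, the mean CPM inside scaffolds exceeded that of autosomal windows by 5.05-fold at the least, in Holstein 4, and by 21.4-fold at the most, in Angus 3. On the log2 scale the ratio was 3.29 ± 0.7495 (SD, n = 8). It lay above 0 in 8 of 8 libraries (exact sign-flip permutation test, two-sided p = 0.00781, the smallest that 8 libraries can give). The ratio of the medians, which a few very high windows cannot set, was 1.99 ± 0.298 on the log2 scale and also lay above 0 in 8 of 8 libraries.

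The levels were spread very unevenly over the windows. A mean of at least 10 CPM was reached by 215 windows (16.03%), against 0.353% of autosomal windows. At the other end, 63 windows (4.70%) had no read in any library, against 0.255% of autosomal windows. The 215 high windows lay on 152 scaffolds and held between 73.3 and 95.5% of all reads inside scaffolds. Only 3 of them carried a gene name.

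Of the reads inside scaffolds, 50% came from 44 to 79 of the 1341 windows, depending on the library, which is 3.28 to 5.89% of them. On autosomes 50% of the reads came from 0.0976 to 3.33% of windows, a smaller percentage in every library. The 10 scaffold windows with most reads in each library held 13.5, 13.6, 15.8 and 13.7% of the reads inside scaffolds in Holstein 1 to 4. They held 21.8, 18.9, 17.8 and 22.3% in the 4 Angus cultures. The breeds did not overlap, with means of 14.2% ± 1.12 and 20.2% ± 2.20 (SD, n = 4 each; exact permutation test, two-sided p = 0.0286, the smallest that 4 against 4 can give). Adjusted over the 7 comparisons of this kind the value was 0.0667, so the difference did not pass the correction at 0.05.

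**Figure D1:**
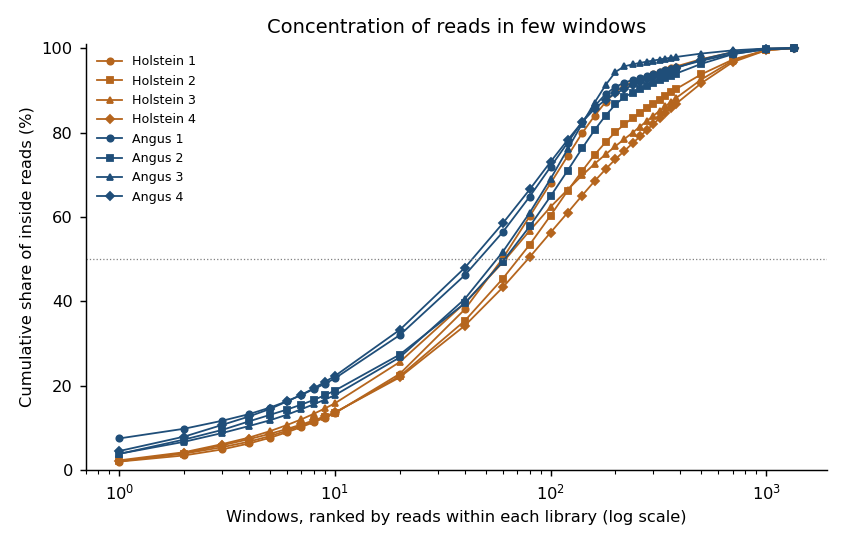
Cumulative share of the reads inside unplaced scaffolds (vertical axis, %) against the number of windows, ranked by reads within each library (horizontal axis, log scale), with 1 line per library, Holstein in brown and Angus in blue. The dotted line marks 50%, which the libraries crossed between 44 and 79 windows.

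The share of all reads that fell in the member windows, wholly inside unplaced scaffolds, was higher in Angus. It was 1.37, 0.921, 0.689 and 0.698% in the 4 Holstein cultures, in order of animal number, and 1.77, 1.42, 2.49 and 1.88% in the 4 Angus cultures. The 95% Wilson intervals were at most 0.0123 percentage points wide, so counting error was far smaller than the spread between libraries. Every Angus library lay above every Holstein library, although Holstein 1 came close to Angus 2. The means were 0.920% ± 0.321 in Holstein and 1.89% ± 0.444 in Angus (SD, n = 4 each), a ratio of 2.06 (exact permutation test, two-sided p = 0.0286, adjusted 0.0667). Without Holstein 1 and Angus 3 the breeds still did not overlap, with a difference of -0.924 percentage points, Holstein minus Angus, and an exact p of 0.1, the smallest that 3 against 3 can give. Measured against reads over autosomal windows instead of all windows, the breeds overlapped (exact p = 0.0571).

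The breeds were also compared by the size of the scaffold. Of the 410 scaffolds, 197 held a single window, 157 held 2 to 4, 32 held 5 to 9 and 24 held 10 or more. Windows on 1-window scaffolds averaged 35.9, 21.3, 13.5 and 13.5 CPM in the 4 Holstein cultures, and 44.6, 30.8, 61.0 and 44.4 CPM in the 4 Angus cultures. Only Holstein 1 reached into the Angus range (exact permutation test, two-sided p = 0.0571, adjusted 0.0800).

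Windows on scaffolds of 2 to 4 windows averaged 9.08 ± 2.91 CPM in Holstein and 20.8 ± 4.83 CPM in Angus (SD, n = 4 each), with no overlap (exact p = 0.0286, adjusted 0.0667). On scaffolds of 5 to 9 windows the means were 2.06 ± 0.416 and 3.24 ± 1.31 CPM, and the breeds overlapped (exact permutation p = 0.0857, adjusted 0.1). On scaffolds of 10 or more windows the means were 1.77 ± 0.262 CPM in Holstein and 1.696 ± 0.377 CPM in Angus (exact permutation p = 0.8). The mean level was thus lower on larger scaffolds in both breeds. The large scaffolds hold 540 windows and 137 of the 211 windows with a gene name. By the mean they lay closest to the autosomal level. The medians did not follow this order. In each library the median on scaffolds of 10 or more exceeded those on scaffolds of 2 to 4 and 5 to 9. In Holstein 1, for example, the medians from 1 window to 10 or more were 17.5, 0.657, 0.354 and 0.860 CPM. In Angus 2 they were 16.5, 1.01, 0.522 and 1.29 CPM. Whether the breed difference itself differed between these sizes was not tested.

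**Figure D2:**
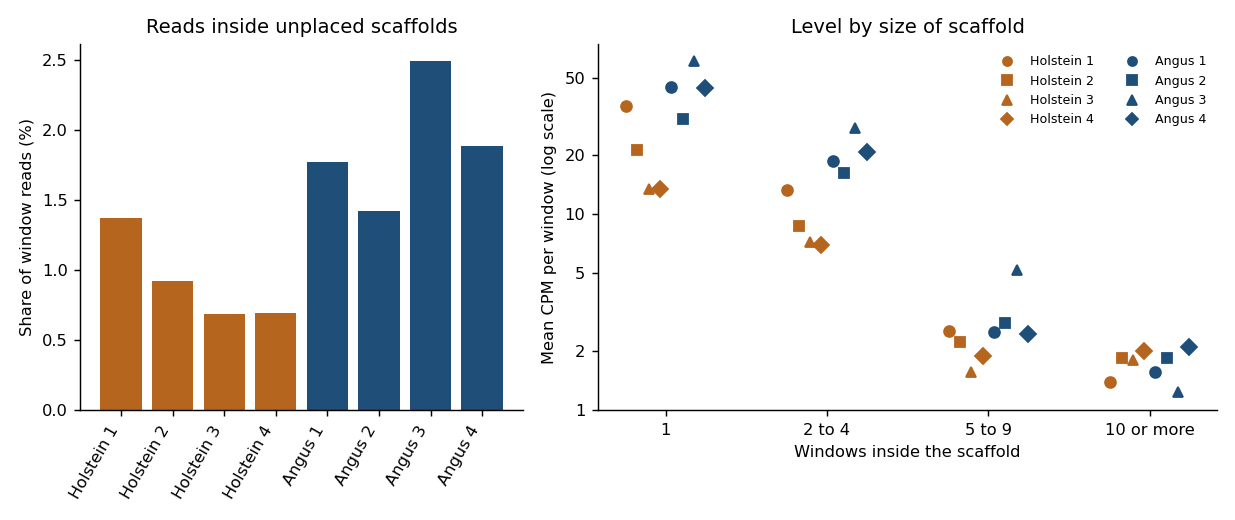
Left, share of window reads that fell in the member windows, wholly inside unplaced scaffolds, in each library (bars, %). Right, mean CPM per window in each library (points, log scale) by the number of windows inside the scaffold; the Angus libraries lie above most Holstein libraries on scaffolds of 1 window and of 2 to 4 windows, and the breeds mix on scaffolds of 10 or more.

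The same contrast appeared when the windows were divided by level. The 215 windows of at least 10 CPM summed to between 5116 and 12473 CPM in Holstein and between 12521 and 23776 CPM in Angus. The other 1126 windows summed to between 1271 and 1862 CPM in Holstein and between 1114 and 1922 CPM in Angus. These windows were divided by the level measured in the same libraries, so the values are a description. Angus 3 was the highest of the 8 libraries in 131 of the 215 windows, and Holstein 4 was the lowest in 107.

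Differential methylation between the breeds was tested window by window with edgeR, over all windows of the genome with at least 1 CPM in at least 4 libraries. Of the 1341 windows, 716 passed this filter, among 115360 tested in all. A window was called when its false discovery rate (FDR) was below 0.1 and its fold change (FC) at least 2. By the likelihood-ratio test, which the study used, 49 of the 716 were called (6.84%), against 0.231% of all windows tested. All 49 were higher in Angus, a direction in which 0.192% of all windows were called. None was higher in Holstein, but only 45 of all 115360 windows were called in that direction, so a count of 0 is near that share. Of the 201 members with a fold change towards Holstein, 6 (2.99%) had an unadjusted likelihood-ratio p below 0.05, against 4.94% of all windows tested. DESeq2 called 0 members higher in Holstein. By the quasi-likelihood test, in which the estimated dispersion of a window carries its own error, 19 were called (2.65%), against 0.122% of all windows, again each of them higher in Angus. The windows that ran across a scaffold end, which were not members, were called more often by both tests. Of 1075 tested, the likelihood-ratio test called 108 (10.05%), 102 of them higher in Angus. The quasi-likelihood test called 50 (4.65%), 48 of them higher in Angus. Frequent calls towards Angus were thus not particular to windows inside scaffolds.

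The 49 windows lay on 37 scaffolds, each had a mean of at least 10 CPM, and none had a gene name. Their log2 fold changes, given as Holstein over Angus so that negative values are higher in Angus, ran from -4.04 to -1.53 with a median of -2.10. In 34 of the 49 every Angus library lay above every Holstein library. Over the 716 tested windows this was so in 50 (6.98%), against 0.208% of all windows tested. The reverse order, every Holstein library above every Angus library, was seen in 3 (0.419%), against 1.11% of all windows.

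The calls lay mostly on small scaffolds, which also held most windows of high level. Windows with a mean of at least 10 CPM, the level of every called window, numbered 104, 96, 12 and 3 from 1-window scaffolds to those of 10 or more. The parts of size and level in the calls were not told apart. On 1-window scaffolds 22 of 125 tested windows were called, on scaffolds of 2 to 4 windows 26 of 201, on scaffolds of 5 to 9 windows 1 of 89, and on scaffolds of 10 or more 0 of 301, a count near the 0.231% of all windows. Of these 301 windows 12 (3.99%) had an unadjusted p below 0.05, against 4.94% of all windows tested. The quasi-likelihood test called 7, 12, 0 and 0 in the same order, and DESeq2 also called 0 on scaffolds of 10 or more. Median log2 fold changes were -0.89, -0.31, -0.05 and -0.06. In the group of 10 or more windows, 63.5% of the tested windows had a negative fold change, against 50.4% of all windows tested, a share that depends on the scaling. Over all 716 windows the median was -0.15 with TMM normalization, where the median of all tested windows was -0.0021. With total counts only it was -0.01, where that of all windows was 0.14. A change of scaling moves the fold change of every window by nearly the same amount. The gap between the members and all windows was thus bound to be similar under both scalings, and its likeness is no added evidence.

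The number of calls depended on single libraries. Without Holstein 1 it rose to 135, and without Angus 3 it fell to 25, of which 1 was higher in Holstein. It fell to 27, 20 and 18 without Holstein 2, Holstein 3 and Holstein 4. Without Holstein 1 and Angus 3 together it was 117, which included 44 of the 49. In the 49 windows Holstein 1 was the highest Holstein library in 37 and Angus 3 the highest Angus library in 33.

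**Figure D3:**
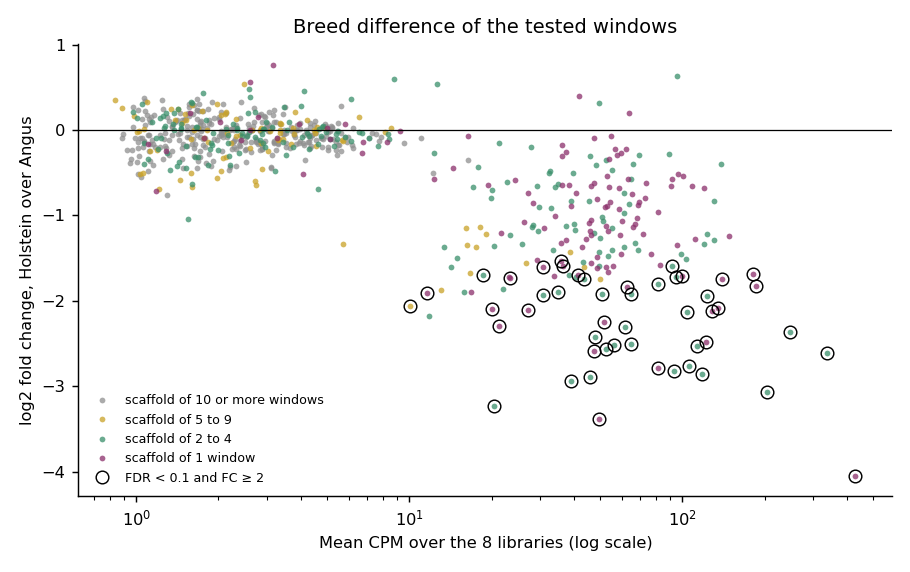
Log2 fold change of Holstein over Angus (vertical axis) against mean CPM over the 8 libraries (horizontal axis, log scale) for the 716 tested windows, coloured by the number of windows on the scaffold. The 49 called windows, circled, all lie below 0 and at or above 10 CPM, on scaffolds of fewer than 10 windows.

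The window with the highest mean of all was the single window of NW_003100597.1, at bases 308 to 3307 of that scaffold. The Holstein cultures held 95.9, 33.5, 56.0 and 25.5 CPM, and the Angus cultures 1333, 78.6, 964 and 852 CPM. Thus 3 of the 4 Angus cultures stood far above the Holstein cultures, while Angus 2 lay within their range. In Angus 1 this window alone drew 38179 reads, 7.51% of all reads inside scaffolds. The log2 fold change was -4.04 ± 0.673 (SE; edgeR likelihood-ratio test, FDR = 1.04e-05; quasi-likelihood test, FDR = 0.0207). It was called in 19 of 19 alternative fits.

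The windows at ranks 2 and 4 adjoin each other and make up the whole of the inside windows of NW_003100305.1. At bases 3144 to 6143, the Holstein cultures held 185, 54.8, 100.5 and 53.2 CPM and the Angus cultures 408, 545, 706 and 643 CPM. At bases 144 to 3143, the Holstein cultures held 118, 20.3, 21.9 and 15.4 CPM and the Angus cultures 276, 324, 516 and 337 CPM. In both windows every Angus culture exceeded every Holstein culture, and Holstein 1 was the highest of its breed. The log2 fold changes were -2.61 ± 0.524 and -3.06 ± 0.623 (SE; edgeR likelihood-ratio test, FDR = 0.000773 and 0.00103; quasi-likelihood test, FDR = 0.0827 and 0.0767).

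The window at rank 3, at bases 4810 to 7809 of NW_003100727.1, held 145, 56.5, 61.4 and 63.5 CPM in Holstein and 225, 484, 414 and 523 CPM in Angus. The breeds did not overlap, and the log2 fold change was -2.37 ± 0.490 (SE; edgeR likelihood-ratio test, FDR = 0.00147; quasi-likelihood test, FDR = 0.0955). Like the windows of NW_003100305.1, it was called in 19 of 19 alternative fits.

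A further 4 of the 10 highest windows were called by the likelihood-ratio test but not by the quasi-likelihood test. They were the single windows of NW_003100627.1, NW_003100299.1, NW_003100401.1 and NW_003100428.1, with log2 fold changes of -1.83, -1.68, -1.74 and -2.08. In each of them the breeds did not overlap. The remaining 2 were not called. The single window of NW_003100584.1 held 277 CPM in Holstein 1 against 14.8 to 29.9 CPM in Holstein 2 to 4, and 136, 30.2, 331 and 337 CPM in Angus, so that it varied 18.7-fold among Holstein and 11.2-fold among Angus cultures. The window at bases 1287 to 4286 of NW_003100359.1 held 65.6 to 194 CPM in Holstein and 81.9 to 215 CPM in Angus, with the breeds mixed.

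**Figure D4:**
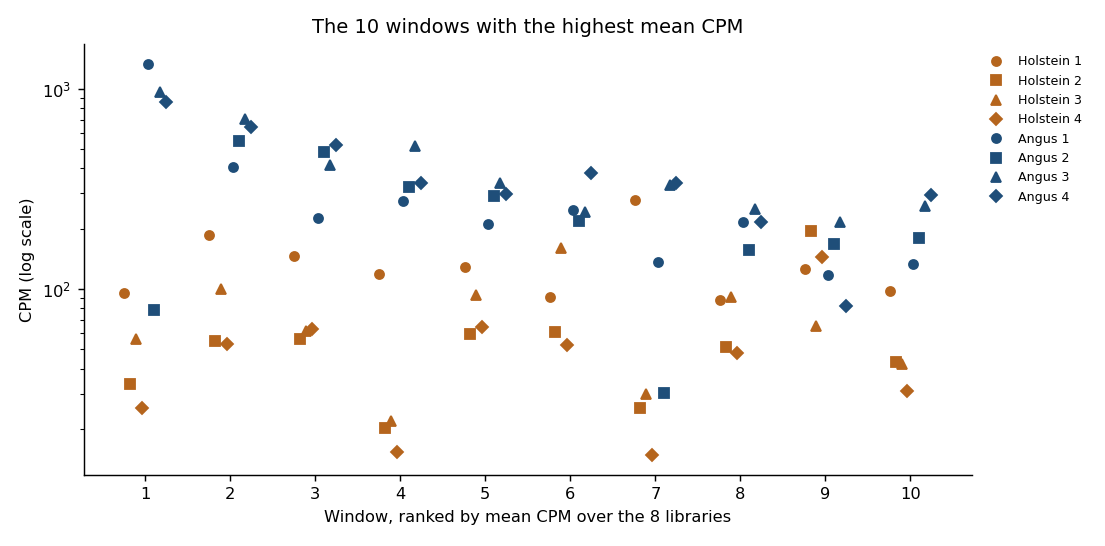
CPM in each library (points, log scale) for the 10 windows with the highest mean CPM, in rank order, Holstein in brown and Angus in blue. In 7 of the 10 every Angus point lies above every Holstein point; the exceptions are rank 1, where Angus 2 lies low, rank 7, where Holstein 1 lies high, and rank 9, where the breeds mix.

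Among called windows below these ranks, the largest fold change was that of the single window of NW_003100389.1, at bases 882 to 3881. It held 25.03, 3.03, 4.05 and 3.63 CPM in the 4 Holstein cultures and 118, 45.3, 134 and 62.7 CPM in the 4 Angus cultures. The breeds did not overlap, and the log2 fold change was -3.39 ± 0.644 (SE; edgeR likelihood-ratio test, FDR = 0.000265; quasi-likelihood test, FDR = 0.0337). The other 2 named for their fold change rested on 1 culture to a larger degree. At bases 6941 to 9940 of NW_003100291.1, Angus 3 held 94.2 CPM while the other Angus cultures held 6.42 to 33.0 CPM and the Holstein cultures 1.49 to 13.2 CPM. At bases 4520 to 7519 of NW_003100589.1, Angus 3 held 171 CPM while the other Angus cultures held 11.6 to 60.4 CPM and the Holstein cultures 3.07 to 30.9 CPM. They were called in 15 and 12 of 19 alternative fits.

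The windows were also summed per scaffold. The sums hold the same reads, and a scaffold of 1 window enters both fits with the same counts, so agreement in direction is no separate evidence. Of the 410 scaffolds 277 were tested, together with all other windows, and the likelihood-ratio test called 34 of them, all higher in Angus, against 0.22% of all entries tested. The quasi-likelihood test called 8, against 0.113%. In 27 of the 34 the breeds did not overlap. NW_003100305.1 had the highest mean of all scaffolds, with 304, 75.01, 122 and 68.6 CPM in Holstein and 683, 869, 1222 and 980 CPM in Angus. NW_003100696.1, with 1 window, held 51.3, 11.5, 11.2 and 9.26 CPM in Holstein and 125, 120, 176 and 145 CPM in Angus (log2 fold change -2.78 ± 0.560, SE; edgeR likelihood-ratio test, FDR = 0.000828; quasi-likelihood test, FDR = 0.0584), and was called in 18 of 18 alternative fits. NW_003100576.1, at rank 4 among scaffolds, held 166 CPM or more in every culture and was not called (log2 fold change -0.92 ± 0.432; edgeR likelihood-ratio test, FDR = 0.943). Without Holstein 1 the number of called scaffolds was 91, without Angus 3 it was 16 and without Holstein 4 it was 10.

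Cultures of one breed also differed more from each other on these scaffolds than on autosomes. The median SD of log2 CPM within a breed was 0.44 inside scaffolds and 0.39 in autosomal windows. Library sizes adjusted by TMM lowered both, to 0.31 and 0.26. By size of scaffold, the medians with total counts were 0.75, 0.52, 0.43 and 0.38, and with TMM 0.97, 0.53, 0.29 and 0.24, from 1 window to 10 or more. The wide spread was thus found on the smallest scaffolds under both scalings, while the medians of scaffolds of 10 or more windows lay just below those of autosomes. The same held by level. Windows of 20 to 50 CPM had a median SD of 0.86 inside scaffolds and 0.43 on autosomes, and those of 2 to 5 CPM had 0.38 and 0.35.

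The highest Holstein culture exceeded the lowest by more than 4-fold in 121 of the 716 windows (16.9%), against 0.997% of autosomal windows. In Angus this was so in 62 (8.66%), against 2.18%. The widest range was that of the single window of NW_003100545.1, at bases 177 to 3176. It held 107, 106, 1.93 and 13.1 CPM in the 4 Holstein cultures and 60.1, 31.3, 119 and 14.6 CPM in the 4 Angus cultures. The Holstein cultures thus differed 55.6-fold among themselves, and the breed means were 57.1 and 56.1 CPM. The other 4 windows of widest range, on NW_003100564.1, NW_003100593.1, NW_003100648.1 and NW_003100677.1, varied 37.7-fold to 41.1-fold among Holstein cultures, and in each of them Holstein 3 was the lowest culture of its breed. None of the 5 was called between breeds.

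Another kind of difference between cultures was seen on NW_003100697.1, a scaffold of 6 windows that carries LOC790181. Over the 2 windows of that gene the cultures held 4.27, 0.281, 2.53 and 4.42 CPM per window in the 4 Holstein cultures, and 3.94, 0.469, 0.336 and 5.19 CPM in the 4 Angus cultures. Holstein 2, Angus 2 and Angus 3 lay far below the other 5, across breeds. The same cultures were the lowest in the adjacent windows at bases 5055 to 8054 and 14055 to 17054, where Holstein 2 had no read, which the depth of that library limits to 0.130 CPM. The remaining cultures held 1.01 to 1.85 CPM in the first of these windows and 1.25 to 2.51 CPM in the second. The windows without reads were named by rule, and the gene beside them was singled out after its values were seen.

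Gene names were given for 211 windows and 62 symbols, of which 39 were LOC numbers, assigned to predicted genes without an established name. Of the 211 windows 119 were tested and none was called by either edgeR test or by DESeq2, which is near the 0.231% of all windows that were called. An unadjusted likelihood-ratio p below 0.05 was found in 10 (8.40%), against 4.94% of all windows tested. They averaged 2.33 ± 0.371 CPM in Holstein and 2.29 ± 0.520 CPM in Angus (SD, n = 4 each), with overlapping ranges, and held 1.46 to 8.14% of the reads inside scaffolds. The 1130 windows without a gene name averaged 7.71 ± 2.90 and 16.3 ± 3.98 CPM, but 137 of the 211 gene windows lay on scaffolds of 10 or more windows, whose windows averaged 1.77 CPM in Holstein and 1.696 CPM in Angus. The share of tested windows with a negative fold change was 74.8% with and 71.4% without a gene name. The 23 genes with an established symbol averaged 3.16 CPM per window over their 114 windows, and the LOC numbers 1.31 CPM over 97. Whether a symbol is given follows the annotation of the scaffold and its size, so the part of the gene itself was not tested.

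A group of neighbouring genes accounted for most gene windows on the large scaffolds. In the current assembly ARS-UCD2.0 the genes MYT1L, PXDN, SNTG2, TMEM18, ALKAL2, ACP1, SH3YL1 and FAM110C lie near each other on 1 chromosome, whereas in the assembly used by the authors they lay on 6 unplaced scaffolds. PXDN, which encodes peroxidasin, an enzyme that crosslinks collagen IV in basement membranes, covered 23 windows of NW_003099180.1. It held 3.92, 5.10, 5.00 and 5.62 CPM per window in the 4 Holstein cultures, and 4.199, 5.00, 3.68 and 6.52 CPM in the 4 Angus cultures. The breeds overlapped throughout, with means of 4.91 ± 0.716 and 4.85 ± 1.24 CPM.

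Along PXDN the level varied much more than between breeds. The window with coding exon 1 held 0.891 CPM on average. The window with coding exon 17, at bases 31833 to 34832, held 16.4 CPM, the highest of any window with a gene name, with 12.4 to 16.8 CPM in Holstein and 13.7 to 21.3 CPM in Angus. The window with coding exon 14 followed with 11.01 CPM, and the lowest, a window with no coding exon, held 0.4995 CPM. None of the 21 tested windows of PXDN was called.

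MYT1L, a zinc finger transcription factor of neurons, covered 19 windows of NW_003100231.1, with means of 3.13 ± 0.574 CPM in Holstein and 3.17 ± 0.810 CPM in Angus. The windows with coding exons 2 and 3 were its lowest, at 1.56 and 1.48 CPM, and the window with coding exon 8 its highest, at 6.14 CPM. SNTG2, which encodes a syntrophin of the dystrophin complex, lay on NW_003099179.1 and averaged 2.93 ± 0.502 CPM in Holstein and 2.91 ± 0.822 CPM in Angus. Windows with coding exon 1 differed in level between genes. That of RNH1, which encodes the ribonuclease inhibitor, held 4.23 CPM. In TMEM18, which encodes a protein of the nuclear membrane, the window with coding exon 1 held 0.734 CPM and that with coding exon 5 held 5.94 CPM.

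**Figure D5:**
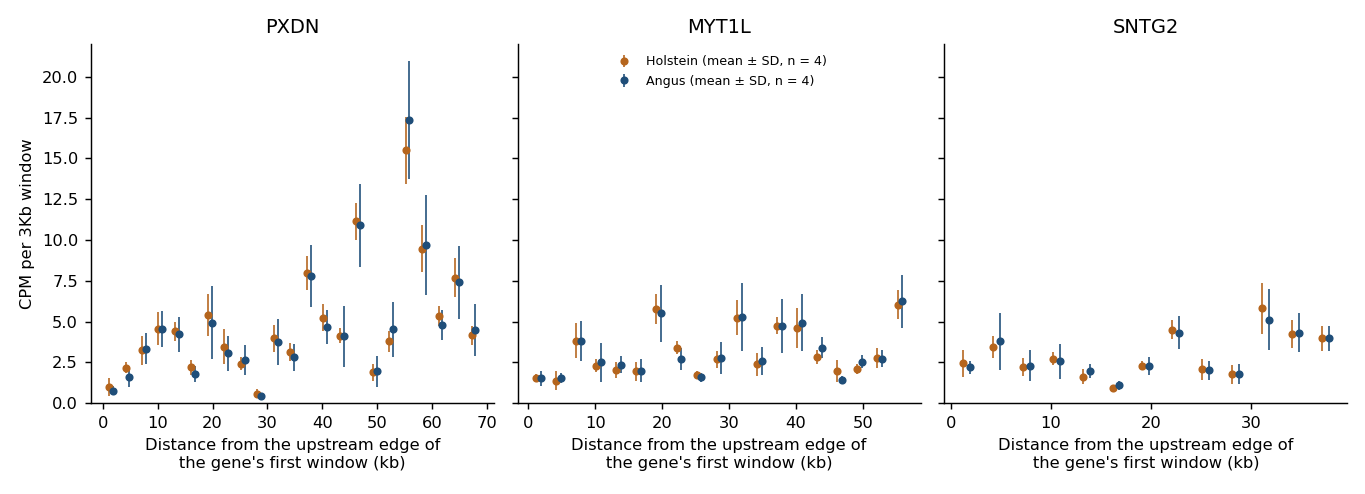
CPM of each window of PXDN, MYT1L and SNTG2 (points, mean ± SD over 4 cultures per breed) against the distance from the upstream edge of the gene's first window, in the direction of transcription (kb). The Holstein and Angus points lie together along all 3 genes, while PXDN rises to 16.4 CPM on average in its later windows.

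Genes known from the pseudoautosomal region, the stretch shared by the X and Y chromosomes, were found on other scaffolds. PLCXD1, a phospholipase-like protein, held 7.03 ± 1.18 CPM per window in Holstein and 6.74 ± 1.65 CPM in Angus. SLC25A6, a mitochondrial ADP/ATP carrier, held 3.99 ± 0.879 and 3.93 ± 0.762 CPM, and LOC100299249, named IL3RA in the current assembly, shared its scaffold. ASMT, the last enzyme of melatonin synthesis, appeared on 2 scaffolds, with 3.88 ± 0.388 and 3.60 ± 1.00 CPM on the larger. In each of these genes the breeds overlapped. Reads of a gene that appears in 2 copies in the assembly may be divided between them.

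MUC2, the main gel-forming mucin of the intestine, had the highest level per window of all named genes. Its window with coding exon 18 held 12.2, 9.13, 12.6 and 13.7 CPM in the 4 Holstein cultures and 9.42, 12.1, 15.3 and 13.7 CPM in the 4 Angus cultures, with no separation of the breeds. IGHG1, an immunoglobulin heavy chain constant region, held 3.48 ± 0.575 and 3.19 ± 0.627 CPM. CATHL4 and CATHL1, antimicrobial peptides of the cathelicidin family, lay on 1 scaffold with 2.21 and 0.499 CPM. CATHL1, DOCK11, SESTD1, OR13J1 and ZNF813 did not pass the filter, and immunoglobulin, mucin and cathelicidin genes have close relatives whose reads could be assigned to them.

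Finally, 22 scaffolds, with 62 windows, had no read in any of the 8 libraries. They included the 12 windows of NW_003099192.1, which carries LOC790643 and LOC784578, and the 10 windows of NW_003100714.1, which carries LOC100140413 and LOC100337085. The single window of USP9Y, a ubiquitin protease gene of the Y chromosome, was also without reads. The cultures came from female animals, and the 12950 windows of the Y chromosome held 428 to 1045 reads per library. A count of 0 limits the level to 0.0844 to 0.161 CPM per window, depending on the library.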

How the data were processed

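The authors pulled down methylated DNA, filtered the reads for quality and aligned them against UMD v3.1 in NextGENe 2.3.4, and deposited raw counts per 3Kb window, with CASAVA 1.7 named in the submitters' processing notes. The deposited coverage signal per window was not used for a test. The treatment of duplicate and of multiply matching reads is not given in the sources used here, and reads in repeats depend on it. A window lay inside a scaffold if it spanned 3000 bases and the next window started on the same scaffold. CPM was computed from the counts. Breeds were tested with edgeR 4.0.16 in R 4.3.3. As in the study's methods, a likelihood-ratio test with Benjamini-Hochberg adjustment was run on all windows with CPM of at least 1 in at least 4 libraries. TMM was chosen here, since the study's methods name no normalization for this test. The quasi-likelihood test was run beside it. SE is the log2 fold change divided by the root of the likelihood ratio. At the study's thresholds the likelihood-ratio fit called 267 windows in all, 110 of them outside unplaced scaffolds. The study lists 49 regions, all on placed chromosomes, so they are not the 49 windows called inside scaffolds. Single values were compared by exact permutation tests in scipy 1.17.1. The procedure was also run on simulated data, most of which varied less between libraries than the named called windows did. That run thus does not bear on windows of wide spread. Named windows were the 10 highest in mean CPM, the 5 called with the largest fold change in each direction, the 5 widest within a breed, the 10 highest with a gene name, and the 3 with most reads among those at 0 in a library; scaffolds were the 5 highest and the 5 called likewise. Genes were otherwise chosen for their position or function. The members and lists were chosen with earlier results of these data known. Of 62 symbols, 37 matched the RefSeq genes of ARS-UCD2.0, used for names and neighbours only. Within breeds, libraries differed by more than sampling noise, with a chi-square per window of at least 23.7. A gene on these scaffolds is not reported here.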

Additional observations from a re-analysis of the deposited data

Results flagged for a closer look

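In 17 of 140 groups of 4 cultures looked at (12.1%), the highest or lowest culture stood apart from the other 3 by more than Dixon's 95% critical value; chance flags about 1 in 20 groups, and groups from the same windows and scaffolds are not independent. The groups included 8 windows chosen for a wide range within a breed or for a library at 0, and without them the count was 15 of 124 (12.1%). Holstein 1 stood high within its breed in 9 of them. It held 118 CPM in the window of NW_003100305.1 from base 144 (next 21.9), 25.03 CPM in the window of NW_003100389.1 from base 882, which is also that scaffold's sum (next 4.05), 158 CPM in the window of NW_003100564.1 from base 4594 (next 10.9), 277 CPM in that of NW_003100584.1 from base 107 (next 29.9), 145 CPM in that of NW_003100727.1 from base 4810 (next 63.5) and 1.11 CPM in that of NW_003100550.1 from base 4064 (next 0.0378). By scaffold it held 51.3 CPM on NW_003100696.1 (next 11.5) and 242 CPM on NW_003100727.1 (next 115).

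The share of the 10 windows with most reads was highest in Holstein 3 (15.8%, next 13.7%), and the mean on scaffolds of 5 to 9 windows was highest in Angus 3 (5.19 CPM, next 2.79). Among genes, Holstein 1 was low in the window of PXDN from base 40833 (9.46 CPM, next 11.6) and Angus 3 was low in SH3YL1 (0.552 CPM, next 0.831). Angus 1 was high in ADAM1A (1.64 CPM, next 1.04) and in DOCK11 (0.209 CPM, next 0.0116), Holstein 3 in OR13J1 (0.416 CPM, next 0.101) and Angus 3 in ZNF813 (0.638 CPM, next 0.105). The last 3 genes rest on few reads per library. No cause was tested for any of these values.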

How the results depend on the processing

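Windows called inside scaffolds numbered 49. The count was 19 with the quasi-likelihood test, 31 with DESeq2 1.42.0, 31 with robust dispersion, 85 with total counts only, 109 without the CPM filter and 117 without Holstein 1 and Angus 3 (chosen after seeing the data). Leaving out single libraries gave 18 to 135. Called scaffolds, 34 in all, numbered 8 with the quasi-likelihood test, 20 with DESeq2, 54 with total counts only, 68 without the CPM filter, 79 without both libraries, and 10 to 91 without single libraries. The difference in the share of reads, -0.972 percentage points, Holstein minus Angus, was -1.29 against autosomal reads (exact p = 0.0571), -4.13 over all windows that start on unplaced scaffolds (exact p = 0.314), -0.702 without the 10 highest windows (exact p = 0.0571), -0.924 without both libraries and -1.13 to -0.773 without single libraries. The difference in the share of the top 10 windows, -6.02 points, was -6.84 for 50 windows (exact p = 0.0571), -6.60 without both libraries and -6.82 to -5.30 without single libraries. With 1 library left out no exact p can fall below 0.0571. The ratio to autosomes kept its direction and its side of 0.05 in all alternatives, from 1.99 to 3.42, with 3.13 to 3.42 without single libraries. The median spread, 0.44, was 0.31 with TMM library sizes, 0.32 without both libraries and 0.37 to 0.47 without single libraries. For the 38 named windows and scaffolds, 612 of 711 alternative values kept direction and call, 51 lost the call and 4 gained it. The other 44, in 14 windows, changed sign, in windows that were called neither before nor after (lowest FDR 0.972). With total counts only, log2 fold changes became 0.064, 0.036 and 0.042 in PXDN (windows from 22833, 40833 and 49833), 0.13 in MUC2 (from 3229), 0.023, 0.027 and 0.036 on NW_003100545.1, NW_003100648.1 and NW_003100677.1, 0.0062 in LOC615899, 0.091 in PLCXD1 and 0.039 in LOC100298789. Without Holstein 1 and Angus 3 they became 0.13 in MUC2 (from 3229), 0.025 on NW_003100359.1, 0.048 on NW_003100545.1, 0.39 on NW_003100648.1, 0.010 in PLCXD1, and -0.55 and -0.52 on NW_003100697.1 (from 14055 and 5055). MUC2 (from 3229) gave 0.0087 with CPM of at least 1 in all 8 libraries, and NW_003100677.1 gave 0.18 without the CPM filter. Without single libraries the values ran from -0.083 to 0.028 in PXDN from 22833, -0.19 to 0.0025 in PXDN from 40833, -0.42 to 0.070 in MUC2 from 229, -0.12 to 0.073 in MUC2 from 3229, -0.65 to 0.13 on NW_003100359.1 from 1287, -0.96 to 0.78 on NW_003100545.1 from 177, -1.19 to 0.28 on NW_003100648.1 from 1152, -0.76 to 0.68 on NW_003100677.1 from 1354, -0.36 to 1.09 on NW_003100697.1 from 14055, -0.19 to 1.22 on NW_003100697.1 from 5055, -0.13 to 0.045 in PLCXD1 from 5580 and -0.25 to 0.045 in LOC100298789 from 2074. The cause of these changes was not tested.

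The animal numbers do not pair cultures of the 2 breeds: same-numbered cultures correlated at -0.0167 on average over all tested windows. With the replicate block 68 windows were called, 48 of them among the 49, and 44 scaffolds, and the differences in share, -0.972 and -6.02, gave an exact p of 0.125, the smallest that 4 pairs allow.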
